A study of Rattus norvegicus with 24 samples.

Results

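Neurofilament and large-fibre neuron genes were described in the lumbar dorsal root ganglia (DRG) of 24 rats. The 8 genes, Nefl, Nefm, Nefh, Ina, Prph, Pvalb, Runx3 and Etv1, were taken by name from a table of 17811 gene entries, where each had 1 entry. They were measured by RNA sequencing (RNA-seq) of the L4-5 DRG of female Sprague-Dawley rats at 20 weeks of age, 1 library per rat. The OVX-TPTD group (n = 8) had been ovariectomized (OVX) and then given subcutaneous teriparatide (TPTD), a fragment of parathyroid hormone used against osteoporosis. The OVX-vehicle group (n = 8) had been ovariectomized and given saline, and the Sham-vehicle group (n = 8) had undergone surgery in which the ovaries were left in place, followed by saline. The study asked which RNAs of primary sensory neurons go with pain-like behaviour after OVX and with its treatment by TPTD. Before treatment, rats had been picked by body weight and heat-withdrawal latency, so each group stands for animals near its average in that behaviour. OVX-vehicle replicate 1 has a title that gives OVX and a surgery entry that gives sham. It was counted among OVX-vehicle rats, as titled, and results that turn on it are given with and without it.

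Neurofilaments are the main intermediate filaments of mature neurons. The light chain (NEFL) forms filaments with the medium (NEFM) and heavy (NEFH) chains, whose long tails line the axon and go with its calibre, and alpha-internexin (INA) and peripherin (PRPH) can assemble into the same filaments. In the DRG, neurofilament-rich cells are mostly the large neurons with myelinated axons that carry touch and body position, whereas peripherin is prominent in small neurons with thin axons, many of them for pain and temperature. Parvalbumin (PVALB) is a calcium-binding protein that marks proprioceptors, the neurons of muscle spindles and tendon organs, and in mice the transcription factors RUNX3 and ETV1 are needed for these neurons to form and to connect in the spinal cord.

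Each library held between 15573490 and 19069926 expected counts (estimated reads per gene), with medians of 18374928 in OVX-TPTD rats, 16916533 in OVX-vehicle rats and 17291324 in Sham-vehicle rats. Markers of DRG sensory neurons were found in every rat, for example Avil at 263 to 363 FPKM (fragments per kilobase of transcript, scaled to the mapped fragments of the library) and Scn10a at 54.9 to 97.4 FPKM. Of the motor neuron markers, Mnx1 was at 0 in 21 rats, Chat did not exceed 0.0548 FPKM and Slc18a3 did not exceed 0.0583 FPKM. Other genes of a motor neuron list were present, among them Isl2 with a mean of 36.9 FPKM in OVX-vehicle rats and 39.9 FPKM in Sham-vehicle rats. Which cells the Isl2 RNA came from was not tested. DRG also hold satellite glia, Schwann cells, fibroblasts and vessels. In such bulk tissue, fewer cells of a type and less RNA per cell cannot be told apart.

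The 3 neurofilament chains were among the most abundant RNAs of the ganglion. Over all rats, Nefl averaged 4520 FPKM and had a rank of 1 or 2 by FPKM in every rat, and Nefm averaged 4197 FPKM with a rank of 2 or 3. Nefh averaged 1706 FPKM, with a rank between 10 and 23. Together the 3 genes took 3.12 ± 0.218% of all counts in OVX-TPTD rats, 3.20 ± 0.289% in OVX-vehicle rats and 3.17 ± 0.116% in Sham-vehicle rats (± SD, 8 rats each). Prph followed at 872 FPKM with a rank between 36 and 50. Ina was far less abundant at 21.1 FPKM, so that FPKM of Nefl was 228 ± 25.8 times that of Ina in OVX-TPTD rats, 222 ± 22.7 times in OVX-vehicle rats and 198 ± 13.2 times in Sham-vehicle rats. Among the large-fibre markers, Pvalb averaged 313 FPKM, Etv1 46.9 FPKM and Runx3 5.82 FPKM. Runx3 rested on only 105 to 174 counts per library, against 156387 to 202934 for Nefl. The ranges over the 24 rats overlapped only for Nefl, 4022 to 4987 FPKM, and Nefm, 3500 to 4922 FPKM. Within each rat the ratio of Nefm to Nefl stayed below 1, between 0.844 and 0.998. The other neighbours in this order of levels were separated in all rats.

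**Figure D1:**
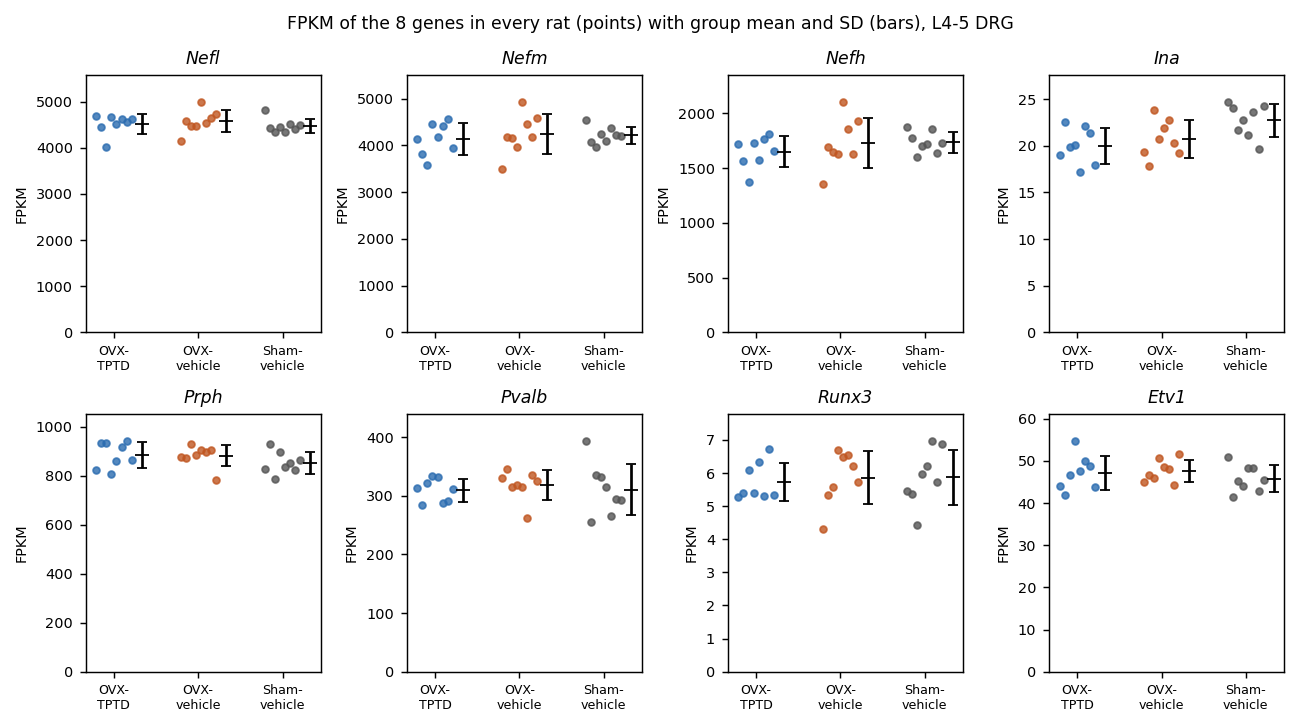
FPKM of the 8 genes (linear axis from 0, a panel per gene) in the OVX-TPTD, OVX-vehicle and Sham-vehicle groups. Points are single rats in order of replicate number, and the bar beside them is the mean with the SD (n = 8). The groups overlap in every panel, and Ina is the gene whose means lie farthest apart in proportion, at 20.0 FPKM in OVX-TPTD rats, 20.7 FPKM in OVX-vehicle rats and 22.7 FPKM in Sham-vehicle rats.

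In the rn6 build used by the authors, Nefl lies at chr15:44799378-44803251 on the + strand and Nefm at chr15:44855308-44860595 on the - strand, 52.1 kb apart with no other entry of the table starting between them. Nefh lies at chr14:85181572-85191557 (- strand), Ina at chr1:266781617-266794428 (+ strand) and Prph at chr7:140742418-140746197 (+ strand). Pvalb is at chr7:119429018-119441487 (- strand), Runx3 at chr5:153507089-153531137 (+ strand) and Etv1 at chr6:58467254-58558640 (+ strand). These spans hold exons and introns, and FPKM was taken per transcript length, from 538 bases for Pvalb to 6879 bases for Etv1.

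The abundance of the light chain was also steady among rats. On the log2 scale, the SD within groups was 0.066 for Nefl, and 4.09% of the 12645 genes tested had a smaller one. Prph followed with 0.079, a value undercut by 9.34% of genes. The SD was 0.12 for Nefm, 0.14 for Nefh and 0.14 for Pvalb, against a median of 0.14 over all genes tested. Of the genes within 2-fold of their own level, a smaller SD was found in 62.5% of 8 for Nefm, 72.1% of 43 for Nefh and 76.3% of 447 for Pvalb. For Nefl this share was 0.0% of 6 genes, and for Prph it was 20.0% of 100. Runx3, with the fewest counts, had the widest spread of the 8 at 0.19.

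The first comparison asked whether OVX goes with a change in these genes. None of the 3 neurofilament chains passed the test. Nefl was measured at 4147 to 4987 FPKM (median 4556) in OVX-vehicle rats and at 4333 to 4817 FPKM (median 4437) in Sham-vehicle rats. Nefm was measured at 3500 to 4922 FPKM (median 4173) in OVX-vehicle rats and at 3959 to 4546 FPKM (median 4200) in Sham-vehicle rats. Nefh was measured at 1354 to 2102 FPKM (median 1670) in OVX-vehicle rats and at 1602 to 1876 FPKM (median 1727) in Sham-vehicle rats. For each chain the OVX-vehicle rats held both the lowest value, in replicate 1, and the highest, in replicate 5, and the Sham-vehicle rats lay between them. The fitted log2 difference of OVX-vehicle against Sham-vehicle was 0.02 (SE 0.038) for Nefl, 0.00 (SE 0.058) for Nefm and -0.02 (SE 0.068) for Nefh. These were smaller than the spread between rats (edgeR quasi-likelihood test, adjusted p of 0.922, 0.999 and 0.967 over all 12645 genes tested). Their 95% intervals spanned values from -0.16 to 0.12.

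Ina, whose protein shares neurofilaments with the 3 chains, was the member with the largest difference. It was measured at 17.8 to 23.8 FPKM (median 20.5) in OVX-vehicle rats and at 19.6 to 24.7 FPKM (median 23.2) in Sham-vehicle rats. The groups overlapped, but 7 of 8 OVX-vehicle rats lay below the Sham-vehicle median. The log2 difference was -0.14 (SE 0.063, 95% interval -0.27 to -0.01), with an unadjusted p of 0.0318 in edgeR and an adjusted p of 0.864 over all genes. On log2(FPKM + 0.1), the two-sided p from every possible regrouping of these rats (exact permutation) was 0.0556. Ina thus did not pass the test. Its difference was -0.21 among replicate numbers 1 to 4 and -0.08 among numbers 5 to 8. The summed FPKM of 6 sensory neuron markers had a range of 512 to 634 (median 565) in OVX-vehicle rats and of 517 to 660 (median 605) in Sham-vehicle rats. Avil, with a mean of 316 FPKM over all rats, was the largest part of this sum. The 20 pan-neuronal genes tested had a median log2 difference of -0.01 in this comparison, with 7 higher and 13 lower. The part of the marker sum in the Ina values was not tested.

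Prph and the large-fibre genes gave no call in this comparison either. Prph was measured at 784 to 928 FPKM (median 889) in OVX-vehicle rats and at 787 to 929 FPKM (median 843) in Sham-vehicle rats, and 7 of 8 OVX-vehicle rats were above the Sham-vehicle median (log2 difference 0.04, SE 0.042, adjusted p = 0.871 in edgeR). Pvalb was measured at 262 to 346 FPKM (median 322) in OVX-vehicle rats and at 256 to 393 FPKM (median 305) in Sham-vehicle rats, with the widest range in the Sham-vehicle rats. Runx3 was measured at 4.32 to 6.69 FPKM (median 5.97) in OVX-vehicle rats and at 4.42 to 6.95 FPKM (median 5.84) in Sham-vehicle rats. Both pairs of ranges overlapped over most of their width. Etv1 was measured at 44.4 to 51.6 FPKM (median 47.4) in OVX-vehicle rats and at 41.4 to 50.8 FPKM (median 45.3) in Sham-vehicle rats. The log2 differences of the 3 genes were 0.03 (SE 0.066) for Pvalb, -0.01 (SE 0.094) for Runx3 and 0.05 (SE 0.052) for Etv1.

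In all, 0 of the 8 genes passed the edgeR test for OVX-vehicle against Sham-vehicle, where 0.00791% of all genes tested passed. At an unadjusted p under 0.05 the count was 1 of 8, Ina, and over all genes the share was 4.82%. By exact permutation the count was 0 of 8, against 5.09% of all genes. DESeq2 and limma also called 0 of the 8. The median log2 difference of the 8 genes was 0.01, and that of all genes was 0.00.

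The second comparison asked whether TPTD changes these genes in OVX rats. Values of the neurofilament chains in OVX-TPTD rats lay within those of OVX-vehicle rats except at the low end of Nefl. Nefl was measured at 4022 to 4678 FPKM (median 4597) in OVX-TPTD rats and at 4147 to 4987 FPKM (median 4556) in OVX-vehicle rats. Nefm was measured at 3586 to 4560 FPKM (median 4159) in OVX-TPTD rats, against the 3500 to 4922 FPKM of OVX-vehicle rats. Nefh was measured at 1378 to 1807 FPKM (median 1691) in OVX-TPTD rats, against the 1354 to 2102 FPKM of OVX-vehicle rats. Replicate 3 was the lowest OVX-TPTD rat for all 3 chains. The log2 difference of OVX-TPTD against OVX-vehicle was -0.02 (SE 0.038) for Nefl, -0.04 (SE 0.058) for Nefm and -0.07 (SE 0.068) for Nefh.

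Ina was measured at 17.2 to 22.5 FPKM (median 20.0) in OVX-TPTD rats, against 17.8 to 23.8 FPKM (median 20.5) in OVX-vehicle rats, and 5 of 8 OVX-TPTD rats lay below the OVX-vehicle median (log2 difference -0.05, SE 0.063). Prph was measured at 808 to 940 FPKM (median 890) in OVX-TPTD rats, against 784 to 928 FPKM (median 889) in OVX-vehicle rats. OVX-TPTD rats had Pvalb at 285 to 334 FPKM (median 313), Runx3 at 5.27 to 6.74 FPKM (median 5.4) and Etv1 at 41.9 to 54.6 FPKM (median 47.2), and each of these ranges overlapped that of OVX-vehicle rats. The edgeR test called 0 of the 8 genes, where 0.0% of all genes tested passed, and DESeq2 and limma called 0 of the 8. At an unadjusted p under 0.05 the count was 0 of 8, against a share of 3.65% over all genes, and by exact permutation it was 0 of 8, against 3.78%. The 95% intervals of the 8 differences ran from -0.22 to 0.16.

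The third comparison set OVX-TPTD rats against Sham-vehicle rats, which differ in both surgery and treatment. Ina again had the largest difference. Its 17.2 to 22.5 FPKM in OVX-TPTD rats overlapped the 19.6 to 24.7 FPKM of Sham-vehicle rats, and 8 of 8 OVX-TPTD rats lay below the Sham-vehicle median of 23.2 FPKM. The mean was 20.0 ± 1.93 FPKM in OVX-TPTD rats and 22.7 ± 1.77 FPKM in Sham-vehicle rats (± SD, 8 rats each). The log2 difference was -0.19 (SE 0.063, 95% interval -0.32 to -0.06), with an unadjusted p of 0.00483 and an adjusted p of 0.258 in edgeR, and a two-sided exact permutation p of 0.0137 on log2(FPKM + 0.1). It did not pass the test over all genes. This difference was -0.21 among replicate numbers 1 to 4 and -0.18 among numbers 5 to 8. Over all 38 fits tried, it lay between -0.22 and -0.17, with an adjusted p between 0.106 and 0.718. The comparison shares its Sham-vehicle rats with the first and its OVX-TPTD rats with the second. The summed sensory neuron markers had a range of 463 to 622 FPKM (median 545) in OVX-TPTD rats and of 517 to 660 FPKM (median 605) in Sham-vehicle rats. The 20 pan-neuronal genes tested had a median log2 difference of -0.01 in this comparison, with 8 higher and 12 lower. The part of the summed markers in the difference of Ina was not tested.

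Of the 8 genes, 0 passed the edgeR test for OVX-TPTD against Sham-vehicle (0.0316% of all genes tested passed), and DESeq2 and limma called 0 of the 8. At an unadjusted p under 0.05 the count was 1 of 8, Ina, where the share of all genes was 15.1%. The exact permutation test likewise gave 1 of 8, against 14.1% of all genes. The groups did not overlap in 0 of the 8 genes, against 0.0949% of all genes, and in OVX-vehicle against Sham-vehicle and OVX-TPTD against OVX-vehicle in 0 of the 8, against 0.00791% in each. Nefh was measured at a median of 1691 FPKM in OVX-TPTD rats and 1727 FPKM in Sham-vehicle rats (log2 difference -0.08, SE 0.068, adjusted p = 0.527 in edgeR). The ratio of Nefh to Nefl in FPKM was 0.365 ± 0.0179 in OVX-TPTD rats, 0.377 ± 0.0329 in OVX-vehicle rats and 0.389 ± 0.0146 in Sham-vehicle rats (± SD, 8 rats each). Its range was 0.343 to 0.396 in OVX-TPTD rats, 0.326 to 0.422 in OVX-vehicle rats and 0.370 to 0.411 in Sham-vehicle rats, so the groups overlapped. The other members differed by 0.044 or less in size on the log2 scale.

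**Figure D2:**
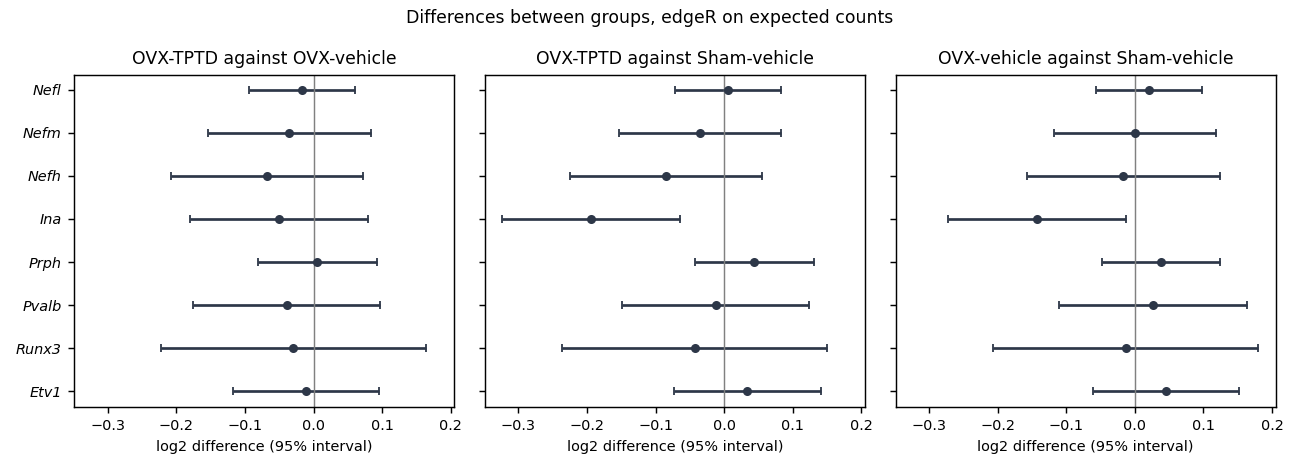
Log2 differences of the 8 genes (points, x axis) with their 95% intervals in the 3 comparisons, from edgeR on the expected counts. The intervals of Ina lie below 0 in both comparisons against the Sham-vehicle group, from -0.27 to -0.01 and from -0.32 to -0.06, and all other intervals include 0.

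Genes that act with these 8 were read from the same fit, in lists chosen with earlier results of these data known. Of 31 large-fibre neuron genes tested, among them the neurotrophin-3 receptor Ntrk3 and the voltage-gated channels of fast-firing cells, 0 passed in any comparison with edgeR, DESeq2 or limma. The count at an unadjusted p under 0.05 in edgeR was 1 for OVX-vehicle against Sham-vehicle, 0 for OVX-TPTD against OVX-vehicle and 8 for OVX-TPTD against Sham-vehicle, where the shares of all genes were 4.82%, 3.65% and 15.1%. Most of the list had a negative log2 difference, 25, 24 and 23 of 31 in the 3 comparisons in that order, while 50.9%, 49.0% and 50.7% of all genes had a positive one. The medians were -0.05, -0.05 and -0.08, against 0.00 for all genes in each. The 26 small-fibre genes tested had a negative difference in 18, 11 and 12 genes and medians of -0.05, 0.02 and 0.00, so in OVX-vehicle against Sham-vehicle the medians of both lists were the same to 2 decimals. Hapln4, a perineuronal link protein, was measured at 19.2 ± 1.10 FPKM in OVX-TPTD rats and 22.3 ± 2.16 FPKM in Sham-vehicle rats (± SD, 8 rats each, log2 difference -0.22, SE 0.074, adjusted p = 0.258 in edgeR). Cacna1h, a low-threshold calcium channel of touch receptors, was measured at 5.17 ± 0.837 FPKM in OVX-TPTD rats and 6.20 ± 0.728 FPKM in Sham-vehicle rats (± SD, 8 rats each, adjusted p = 0.258 in edgeR). The secreted phosphoprotein gene Spp1 had the smallest p of the list between OVX-vehicle, 926 ± 101 FPKM, and Sham-vehicle rats, 824 ± 56.3 FPKM (± SD, 8 rats each), and its adjusted p was 0.864.

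Genes that phosphorylate, transport, cross-link or degrade neurofilaments formed a second list. Of 33 tested, 0 passed in any comparison with edgeR, DESeq2 or limma, with 0, 0 and 7 at an unadjusted p under 0.05, beside the same 4.82%, 3.65% and 15.1% of all genes, and 27, 27 and 26 with a negative log2 difference. The median was -0.08 for OVX-TPTD against Sham-vehicle. Map1a, a microtubule-associated protein of axons, was measured at 186 ± 25.0 FPKM in OVX-TPTD rats and 219 ± 26.1 FPKM in Sham-vehicle rats (± SD, 8 rats each, log2 difference -0.25, SE 0.086, adjusted p = 0.261 in edgeR). The other intermediate filament genes held 12 tested members and 0 calls by these tools, with 1, 0 and 3 at an unadjusted p under 0.05 in edgeR. Krt19, a keratin, had the smallest p of this list in both comparisons against Sham-vehicle rats. It was measured at 1.76 ± 0.693 FPKM in OVX-TPTD rats, 1.62 ± 0.818 FPKM in OVX-vehicle rats and 2.95 ± 1.18 FPKM in Sham-vehicle rats (± SD, 8 rats each). Its log2 difference from Sham-vehicle rats was -0.75 in OVX-TPTD rats (SE 0.27, adjusted p = 0.261 in edgeR) and -0.86 in OVX-vehicle rats (SE 0.27, adjusted p = 0.806 in edgeR).

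A list of 16 tested genes of neurotrophin-3 signalling and of Runx3 and Etv1 partners held 1 call. Bdnf, a neurotrophin made by sensory neurons, rose to 5.02 ± 0.642 FPKM in OVX-TPTD rats, against 3.39 ± 0.450 FPKM in Sham-vehicle rats (± SD, 8 rats each, log2 difference 0.56, SE 0.084, adjusted p = 0.00565 in edgeR). In this comparison it passed in 36 of 38 fits, and was not called in the 4 rats per group of either run of replicate numbers alone. OVX-vehicle rats had 3.87 ± 0.362 FPKM of Bdnf, and OVX-TPTD against OVX-vehicle (log2 difference 0.38, SE 0.083, adjusted p = 0.995 in edgeR) passed in 0 of 38 fits. For Bdnf in this comparison, the unadjusted p was 0.00011 in edgeR, and the lowest adjusted p of the 38 fits was 0.065, in DESeq2. Ntrk3 was measured at 6.01 ± 0.766 FPKM in OVX-vehicle rats and 6.78 ± 1.21 FPKM in Sham-vehicle rats (± SD, 8 rats each, adjusted p = 0.864 in edgeR). Myelinating Schwann cells wrap the axons of large-fibre neurons. All 14 of their genes tested had a positive log2 difference for OVX-vehicle against Sham-vehicle and a negative one for OVX-TPTD against OVX-vehicle, 2 comparisons that share the OVX-vehicle rats, with 0 calls by edgeR, DESeq2 or limma and 5 genes at an unadjusted p under 0.05 in each, beside 4.82% and 3.65% of all genes. The medians were 0.14 and -0.17. The 12 fibroblast and meninges genes tested had the opposite signs, with 11 negative and then 11 positive, medians of -0.11 and 0.13 and 0 calls by these tools, with 2 and 0 genes at an unadjusted p under 0.05. Nefl, Nefm and Nefh had log2 differences between -0.07 and 0.02 in the same comparisons.

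While no member passed a test between groups, rats within a group varied in the 3 neurofilament chains at once. After subtraction of each group's mean, the log2 values of Nefm and Nefh correlated over the 24 rats with r = 0.93 (rho = 0.82), those of Nefl and Nefh with r = 0.88 (rho = 0.76) and those of Nefl and Nefm with r = 0.86 (rho = 0.77). For the Pearson r of each pair the permutation p was 1e-05, the smallest that 100000 permutations can give, and the Benjamini-Hochberg adjusted p over the 28 pairs of members was 9.33e-05. The permutation p of rho was at most 6e-05, with adjusted values up to 0.00056. Without the 2 rats farthest from the median on the x axis, r was 0.87, 0.78 and 0.75 for the same pairs. Within single groups, r of Nefm and Nefh was 0.90 in OVX-TPTD rats, 0.99 in OVX-vehicle rats and 0.76 in Sham-vehicle rats. It was 0.94 among replicate numbers 1 to 4 and 0.88 among numbers 5 to 8. OVX-vehicle replicates 1 and 5 stood at both ends of the range of Nefm and Nefh, and without them the 3 values of r were 0.87, 0.79 and 0.76.

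**Figure D3:**
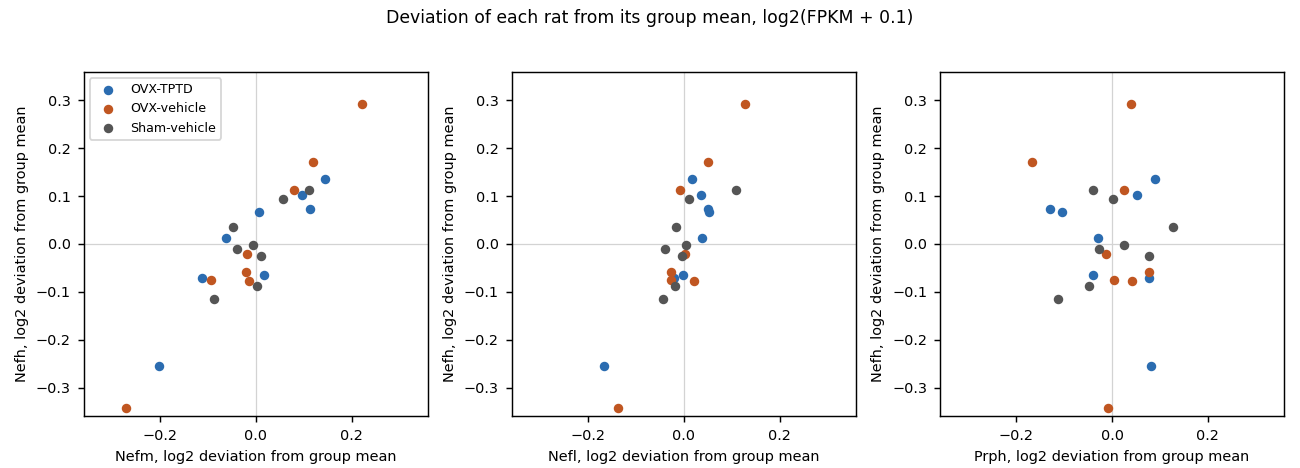
Log2 deviation of Nefh from its group mean (y axis) against that of Nefm, Nefl and Prph (x axes) in 24 rats, coloured by group on equal scales. The points follow a line for Nefm (r = 0.93) and Nefl (r = 0.88) and none for Prph (r = -0.11).

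The excursions of the chains were of unequal size. OVX-vehicle replicate 1 had 1354 FPKM of Nefh and 4147 FPKM of Nefl, and replicate 5 had 2102 FPKM of Nefh and 4987 FPKM of Nefl. The ratio of Nefh to Nefl was therefore lowest, at 0.326, in the rat with the least Nefh and highest, at 0.422, in the rat with the most. Over all rats the highest level was 1.55 times the lowest for Nefh, 1.41 times for Nefm and 1.24 times for Nefl. The first principal component of all genes after removal of the group means, which held 12.7% of the variance, correlated with Nefh at r = 0.70, with Nefm at 0.64 and with Nefl at 0.47. Its r was 0.62 with Runx3, 0.60 with Ina, -0.50 with Pvalb, 0.34 with Prph and 0.28 with Etv1. With this component removed, an alternative added after the data were seen, the 3 pairs still had r of 0.88, 0.87 and 0.82.

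Few of the other pairs varied together. Of the 28 pairs, 5 had an adjusted p under 0.05, and beside the 3 above these were Nefm with Etv1 (r = 0.53, rho = 0.58, permutation p = 0.00676, adjusted p = 0.0473) and Ina with Prph (r = 0.55, rho = 0.58, permutation p = 0.00882, adjusted p = 0.0494). Both calls were lost without OVX-vehicle replicate 1, with adjusted p of 0.0874 and 0.0728 at r of 0.53 and 0.55, and with the first component removed, with adjusted p of 0.0557 and 0.0728. With that component removed 6 pairs passed, the 3 neurofilament pairs, Nefl with Pvalb (r = 0.47), Pvalb with Etv1 (r = 0.50) and Prph with Etv1 (r = -0.56), the last 3 with an adjusted p of 0.0481. Without the 2 rats farthest from the median on the x axis, r was 0.57 for Nefm with Etv1 and 0.58 for Ina with Prph. Prph had a negative r with Pvalb (-0.44, adjusted p = 0.134) and with Etv1 (-0.41, adjusted p = 0.189), and neither passed. Pvalb and Runx3, both markers of proprioceptors, had r = -0.32 (adjusted p = 0.311). The low counts of Runx3 limit what its correlations can show.

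**Figure D4:**
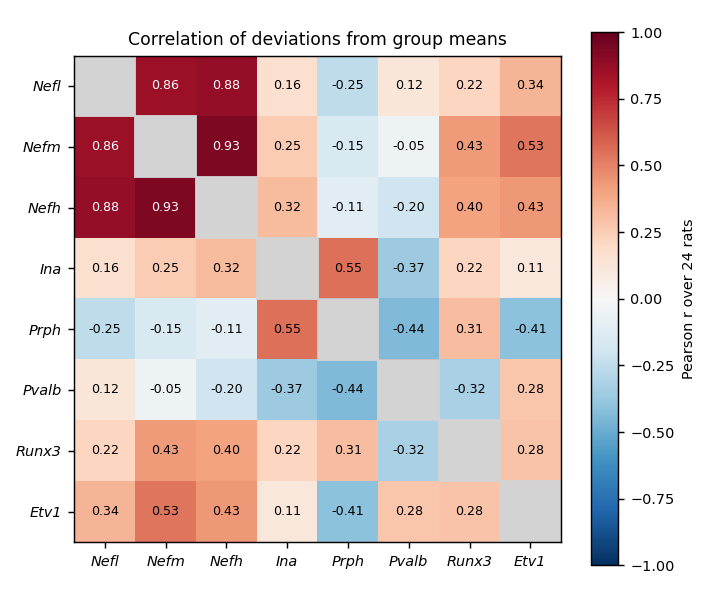
Pearson r between the 8 genes over 24 rats after removal of the group means (colour and number, scale from -1 to 1). The block of Nefl, Nefm and Nefh at 0.86 to 0.93 stands out, and Prph has negative values with Pvalb (-0.44) and Etv1 (-0.41).

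Ina and Prph were the 2 filament genes with an entry in the RefSeq promoter table (build GRCr8, another build than the rn6 of the count table), which matched 5 of the 8 members. The 250 bases before the annotated start of their transcripts are shown so that their make-up can be compared, at chr1:255837879-255838128 for Ina and chr7:132097039-132097288 for Prph, both on the + strand. They read 5′ to 3′ in lower case, with capitals for each TATAAA (the TATA box) and each CCGCCC (a GC box), which were searched on both strands and do not overlap each other.
Ina: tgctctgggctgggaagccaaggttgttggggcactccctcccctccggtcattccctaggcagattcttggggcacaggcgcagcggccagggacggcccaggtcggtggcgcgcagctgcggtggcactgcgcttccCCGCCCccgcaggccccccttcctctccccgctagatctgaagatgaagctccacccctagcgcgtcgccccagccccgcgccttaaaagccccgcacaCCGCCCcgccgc
Prph: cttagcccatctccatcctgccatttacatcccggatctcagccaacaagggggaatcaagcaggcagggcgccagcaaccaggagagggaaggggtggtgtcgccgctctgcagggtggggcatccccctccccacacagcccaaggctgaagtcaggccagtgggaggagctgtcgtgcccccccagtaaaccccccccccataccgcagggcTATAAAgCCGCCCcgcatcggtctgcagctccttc
The window of Prph held 1 TATAAA, which began 35 bases before the start, and 1 CCGCCC, which began 28 bases before it. The window of Ina held no TATAAA and 2 CCGCCC, which began 111 and 12 bases before the start. Of the 33469 promoter entries, 12.9% held TATAAA and 30.5% held CCGCCC on either strand. The share of G and C was 70.8% in Ina and 64.4% in Prph, against a median of 51.2%. These matches describe the letters of the windows only.

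The genes nearest to each member were taken by r over the 24 rats. Those of Nefm included Nefh and Sgpp2 (r = 0.87), a sphingosine phosphate phosphatase. Those of Nefh included Nefm and Epn3 (r = 0.89), an endocytic adaptor, and for Nefl they were Nefh, Nefm and the orphan nuclear receptor gene Esrrg (r = 0.80). For Ina they were Smarcd1 (r = 0.87), a chromatin remodelling subunit, the semaphorin gene Sema3b (r = 0.85) and the glycosyltransferase gene Mgat4b (r = 0.84). For Prph they were the RNA-binding protein gene Celf6 (r = 0.85), Fam89a (r = 0.85) and Ctxn1 (r = 0.84). Pvalb had Ldhb (r = 0.83), a lactate dehydrogenase, Tmem126b (r = 0.82) and Ccdc32 (r = 0.81). Runx3 had Ctif (r = 0.82), Kcnip3 (r = 0.81) and Lhfpl4 (r = 0.79), and Etv1 had Zbtb40 (r = 0.75), Hsd17b14 (r = 0.72) and Sertm1 (r = 0.71). These were among the 3 highest of 11396 genes for each member, all with a mean of at least 1 FPKM, and carry no test. Of these genes, 13.2% had r over 0.5 with Ina, 10.7% with Nefh, 10.4% with Pvalb, 8.42% with Nefm, 7.87% with Runx3, 4.84% with Nefl, 4.05% with Prph and 1.02% with Etv1.

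The large-fibre list had a higher median r with the neurofilament chains than with Prph or Pvalb. Its 31 genes had a median r of 0.42 with Nefh, 0.38 with Nefm and 0.40 with Nefl, against medians of -0.04, -0.04 and -0.02 over all genes, and 12 of the 31 had r over 0.5 with Nefh, as did 10.7% of all genes. With Prph the median was -0.09 and 2 of the 31 were over 0.5, as were 4.05% of all genes. With Pvalb, itself a large-fibre marker, the median was -0.06, with 4 of the 31 over 0.5 and 3 under -0.5. Ldhb (r = -0.21) and Spp1 (r = -0.43) of the same list had negative values with Nefh. Cacna1h, also of this list, had r = 0.37 with Nefh and r = 0.57 with Prph. High values with Nefh were not particular to the large-fibre list. The 33 neurofilament handling genes had a median r of 0.36 with Nefh, with 12 over 0.5. The 15 genes of neurotrophin-3 signalling and of Runx3 and Etv1 partners had 0.35, with 4 over 0.5. Of 20 pan-neuronal genes, 6 were over 0.5 with Nefh, at a median of 0.11. The small-fibre list, 25 genes, had a median r of -0.07 with Nefh and 0.34 with Prph, and 4 of its 25 genes had r under -0.5 with Nefh, as did 12.5% of all genes. Among those was Tac1, the substance P precursor, at r = -0.79. Tac1 passed the edgeR test against the Sham-vehicle group in the OVX-TPTD and the OVX-vehicle rats (adjusted p = 0.0173 and 0.0269), and its r with Nefh was taken after the group means had been removed. In 24 fits that left out 1 rat each, the call was lost in 2 fits for OVX-TPTD rats and in 10 fits for OVX-vehicle rats. For OVX-vehicle rats it passed in 23 of 38 fits, and it was lost without OVX-vehicle replicate 1 (adjusted p = 0.0797), with 2 groups only (0.158) and with the replicate block (0.136). With that rat counted as a Sham-vehicle rat it was lost for OVX-TPTD rats (adjusted p = 0.336 in edgeR) and for OVX-vehicle rats (adjusted p = 0.99996 in edgeR).

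Genes of other cells of the ganglion had these values beside the neurofilament chains. The median r with Nefh was -0.31 for 14 satellite glia genes, -0.14 for 14 myelinating Schwann cell genes, 0.11 for 20 pan-neuronal genes and -0.57 for 3 blood genes. Runx3 had a median r of -0.47 with the Schwann cell genes, and 6 of those 14 were under -0.5, as were 5.6% of all genes. Pvalb had a median r of 0.15 with the satellite glia genes and -0.25 with the small-fibre genes. The part of these cells in the variation of the 8 genes was not tested.

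**Figure D5:**
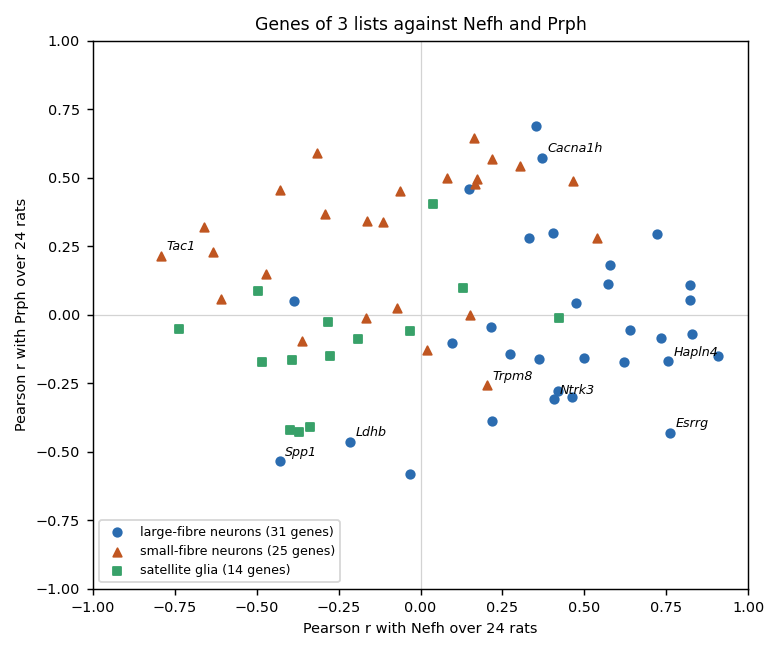
Pearson r of each gene with Nefh (x axis) and with Prph (y axis) over 24 rats, for the large-fibre list (31 genes), the small-fibre list (25 genes) and the satellite glia list (14 genes). Large-fibre genes lie mostly to the right (median r with Nefh 0.42) and small-fibre genes mostly above 0 (median r with Prph 0.34). The neurofilament handling list, not drawn, had a median r with Nefh of 0.36 over 33 genes.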

How the data were processed

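Poly(A) RNA of L4-5 DRG was sequenced in stranded libraries, 1 for each of 24 rats. Per the submitters' processing notes, the authors used bcl2fastq 1.8.4 and TopHat2 2.0.14 with rn6, and computed gene values in Genedata Expressionist. The deposited table holds expected counts per gene, of which 86.4% were whole within 0.001, and the FPKM values deposited beside them, normalized by the authors for transcript length and mapped fragments. The annotation release is not given in the sources used here. Titles gave each rat its group and replicate number. Libraries of a group differed by more than counting error, with a chi-square per gene of 5.60 to 39.9.

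Expected counts were rounded and tested with edgeR 4.0.16 in R 4.3.3 (TMM factors of 0.969 to 1.015, filterByExpr, quasi-likelihood test, 3 groups in 1 fit, Benjamini-Hochberg adjustment over 12645 genes, threshold 0.05). FPKM was compared on log2(FPKM + 0.1) by exact two-sided permutation, which for low genes understates a change. Intervals are 95% intervals of the edgeR fit. Correlations over rats used log2(FPKM + 0.1) minus the group mean, with 100000 permutations and adjustment over 28 pairs. Principal components came from the same values. Alternatives were RLE or no normalization factors, no filter or at least 10 counts, 2 groups only, a replicate block, a term for replicate numbers 1 to 4 against 5 to 8, each run of numbers alone, OVX-vehicle replicate 1 as a Sham-vehicle rat, limma 3.58.1, DESeq2 1.42.0 and each rat left out. The edgeR step was run on simulated counts. The calculation of r was run on simulated pairs, without the removal of group means, the permutations or the adjustment. The 8 members, the lists of related genes and the tests were chosen with earlier results of these data known. The genes named are the 8 members, cell type markers, those of each list with the smallest edgeR p in a comparison or past the threshold, and the 3 genes with the highest r with each member, except that some are not reported here.

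Whether replicate numbers pair rats was checked from deviations from group means. Rats of different groups with the same number had a median r of 0.026 (-0.092 to 0.114), against 0.0069 for other numbers, so the numbers were not taken as pairs. Each replicate was a separate rat, so the tests between groups set a difference against the spread between animals.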

Additional observations from a re-analysis of the deposited data

Results flagged for a closer look

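In 4 of 24 sets, each of 8 rats for 1 gene in 1 group, a single rat lay far from the others by Dixon's criterion (the gap to the next rat as a share of the range), which chance alone meets in about 1 of 20 sets. Nefl was lowest at 4022 FPKM in OVX-TPTD replicate 3, where the next rat had 4448 FPKM. Nefl was highest at 4817 FPKM in Sham-vehicle replicate 1, above the next rat at 4505 FPKM. Prph was lowest at 784 FPKM in OVX-vehicle replicate 8, below the next rat at 873 FPKM. Pvalb was lowest at 262 FPKM in OVX-vehicle replicate 6, below the next rat at 314 FPKM. The same OVX-TPTD replicate 3 had the lowest Nefm and Nefh of its group, and the same Sham-vehicle replicate 1 the highest.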

How the results depend on the processing

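No member passed in any of 38 fits per comparison, and the lowest adjusted p of a member was 0.106, for Ina between OVX-TPTD and Sham-vehicle with 1 rat left out. Of 312 member differences under alternatives other than leaving out a rat, 26 turned direction, none of them past the threshold. The largest of the 26 was 0.11 in size, and the cause was not tested. For OVX-vehicle against Sham-vehicle, Nefm was -0.0012 with RLE factors and with DESeq2, -0.0011 with no filter, -0.0025 with at least 10 counts, -0.0022 with 2 groups only, -0.0031 with the term for replicate numbers and -0.0020 with the replicate block. Among replicate numbers 1 to 4 it was -0.11, with Nefl at -0.045, Pvalb at -0.024 and Runx3 at 0.027, and among numbers 5 to 8 Nefh was 0.11. With OVX-vehicle replicate 1 as a Sham-vehicle rat, Nefh was 0.061 and Runx3 0.082. For OVX-TPTD against OVX-vehicle, numbers 1 to 4 gave Nefl 0.013, Nefm 0.022, Nefh 0.019, Prph -0.025 and Runx3 0.021. For OVX-TPTD against Sham-vehicle, numbers 1 to 4 gave Nefl -0.032 and Runx3 0.049, numbers 5 to 8 gave Nefm 0.011 and Pvalb 0.058, moving OVX-vehicle replicate 1 gave Runx3 0.0014, and limma gave Pvalb 0.0061 with either pseudocount.

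Leaving out 1 rat turned 46 of 576 differences. The ranges were -0.035 to 0.035 for Nefm, -0.064 to 0.026 for Nefh, -0.010 to 0.082 for Pvalb and -0.066 to 0.040 for Runx3 in OVX-vehicle against Sham-vehicle. They were -0.036 to 0.0078 for Nefl, -0.014 to 0.022 for Prph and -0.047 to 0.016 for Etv1 in OVX-TPTD against OVX-vehicle. They were -0.0057 to 0.028 for Nefl, -0.047 to 0.042 for Pvalb and -0.0033 to 0.060 for Etv1 in OVX-TPTD against Sham-vehicle.

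Over all genes, OVX-vehicle against Sham-vehicle had 1 call, which became 2 with no filter, 2 with limma at either pseudocount, 6 with DESeq2, 0 with 2 groups only, the replicate block, either run of numbers or OVX-vehicle replicate 1 moved, and 0 to 2 with a rat left out. OVX-TPTD against OVX-vehicle had 0 calls in edgeR, with 462 genes at an unadjusted p under 0.05, 1 call with DESeq2, 0 with limma and 0 with any rat left out. OVX-TPTD against Sham-vehicle had 4 calls, against 9 without normalization factors, 10 with the replicate block, 7 with limma and a pseudocount of 1, 36 with DESeq2, 1 with OVX-vehicle replicate 1 moved, 0 in either run of numbers, and 1 to 14 with a rat left out, 14 of them without OVX-vehicle replicate 1. The replicate block changed no call of a member. In the exact permutation test, 1 difference of a member had p under 0.05, and log2 CPM gave 2, the second being Ina in OVX-vehicle against Sham-vehicle (-0.14, exact p = 0.0432), and 1 without OVX-vehicle replicate 1, the only rat left out of that test. Of 5 member pairs past the threshold, 3 were past it without OVX-vehicle replicate 1, and 3 without replicates 1 and 5, an alternative added after the data were seen, while 6 were past it with the first component removed, added likewise. Runx3, with at most 174 counts, is limited by depth.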
